A study of Mus musculus with 12 samples.

Results

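The collagen genes of mouse liver were read from every gene probe of a whole-genome Agilent array whose transcript accession carries a symbol of the form Col, number, a, number. This gave 66 of 55681 gene probes, which read 44 of the 21613 genes named on the array. By the shape of the chains, 11 genes encode fibrillar collagens, 6 encode basement membrane chains and 9 encode fibril-associated collagens with interrupted triple helices (FACIT). A further 6 encode beaded-filament chains, and 12 fall outside these classes.

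The samples were 12 arrays of total RNA from the liver of male C57BL/6NJcl mice, in 6 groups of 2. Control mice ate the breeding chow CE-2 for 1, 2 or 6 weeks, which took them to an age of 7, 8 or 12 weeks. Mice of the same strain, sex and ages ate CDAHFD, a choline-deficient, L-amino acid-defined diet with 60 kcal% fat and 0.1% methionine that is used to bring on nonalcoholic steatohepatitis. Chow and CDAHFD differ in more than 1 component, and the components cannot be told apart here. The labels number the replicates without saying that they came from separate mice, so the p-values measure only how far these arrays differ, and that may be technical.

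Collagens are built from alpha chains that wind into a triple helix, and several types are heterotrimers of chains from different genes. Fibrillar collagens make the tensile fibres of scar tissue, collagen IV makes the sheet of basement membranes, collagen VI makes beaded filaments next to cells, and FACIT collagens sit on the surface of fibrils. In injured liver, stellate cells that become myofibroblasts, together with portal fibroblasts, are known as the main makers of fibrillar collagen. The design asks which collagens differed with the diet, and whether the difference changed with weeks of feeding. Liver RNA is a bulk sample, so more cells that make a collagen and more RNA per cell cannot be told apart.

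Of the 44 collagens, 24 could be tested, having a probe that stood well above background in every array of 1 or more groups. These were 8 fibrillar, 5 basement membrane, 5 FACIT and 3 beaded-filament chains and 3 others, and 16 of the 24 were above background on all 12 arrays. Col12a1, Col4a4 and Col5a2 passed through CDAHFD groups alone, so the counts below describe the measured genes and not the family. The other 20 genes, with 33 probes, had signals between 1.64 and 26.0, and none of their probes was above background on more than 2 arrays. They include Col15a1, a collagen of vascular basement membranes, and the cartilage collagens Col2a1, Col9a1, Col9a3, Col10a1 and Col11a1. The others were Col4a3, Col6a4, Col6a5, Col6a6, Col8a1, Col8a2, Col17a1, Col19a1, Col22a1, Col23a1, Col24a1, Col25a1, Col26a1 and Col28a1.

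Values are given as scaled signal, the processed spot intensity after every array was brought to a common 75th percentile. Signals of different genes come from different probes and are not compared. Differences are CDAHFD minus control in log2 with the standard error of the fit (n = 2 arrays a group), relative to the median of all 13900 genes tested, which was 0.13, 0.05 and 0.03 at 1, 2 and 6 weeks. The median of all genes is therefore 0 on this scale. A gene is called where its limma p, adjusted by Benjamini-Hochberg over all genes tested, is under 0.05. That p tests the difference before the median of all genes is taken off. The printed difference and its direction are those after it. The median was above 0 at each week, most at 1 week, which eases higher calls and hinders lower ones. Each array detected between 40.4% and 49.7% of its probes. The first control array of week 1 stood apart: 206 bright spots on it were at least 8-fold below every other array, none of them read here for a collagen. The SD between replicates over all genes was 0.601 for the 1-week controls and 0.208 to 0.348 in the other groups. Over the measured collagens it was 0.515 for the 1-week controls and 0.181 to 0.324 in the others.

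After 1 week, 16 of the 24 measured collagens were called higher on CDAHFD and 3 lower, where 25.9% of all genes tested were called higher and 15% lower. After 2 weeks 14 were higher and 2 lower, against 22.9% and 14.9% of all genes. After 6 weeks 14 were higher and 2 lower, against 24.5% and 16.2%. The same 13 collagens were called higher at all 3 weeks, as were 15.2% of all genes tested: Col1a1, Col1a2, Col3a1, Col5a1, Col4a1, Col4a2, Col4a5, Col12a1, Col14a1, Col16a1, Col6a1, Col6a2 and Col6a3. Of these 13, Col12a1 passed the filter through CDAHFD groups alone. Col4a6 alone was called lower at all 3 weeks, as were 7.06% of all genes. In 14 collagens every CDAHFD array was above every control array (21% of all genes), and in 2 every CDAHFD array was below (11%). The median difference of the 24 genes was 0.99, 0.96 and 1.29 at the 3 weeks, and 0.81, 0.78 and 1.09 with genes below background in a group set to their bound.

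**Figure D1:**
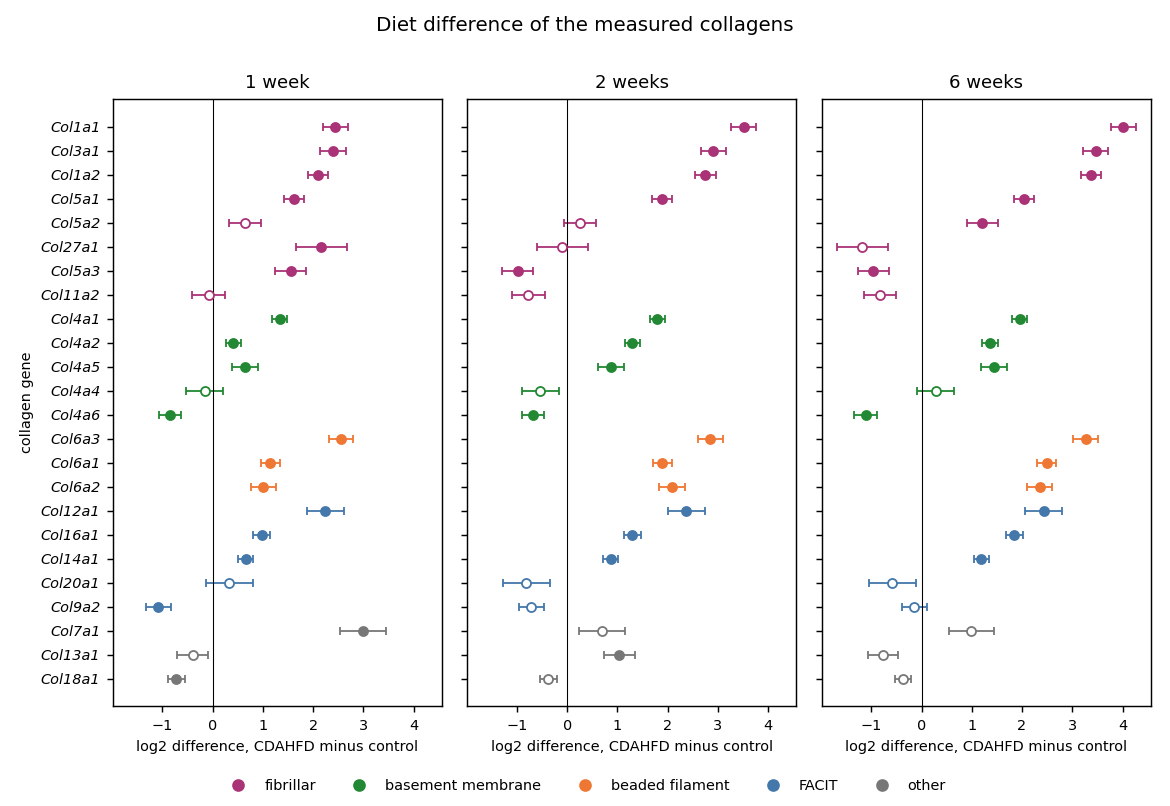
Difference between CDAHFD and control liver for each of the 24 measured collagens at 1, 2 and 6 weeks. The horizontal axis is the log2 difference relative to the median of all genes, points are the estimates from 2 arrays a group, bars are 1 standard error, colours are the classes, and open points have an adjusted limma p of 0.05 or more. Col1a1 lies at 2.44, 3.52 and 4.01, while Col4a6 lies below 0 at every week and Col5a3 changes side between 1 and 2 weeks.

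With the 2- and 6-week controls in place of those of week 1, 14 collagens were called higher at 1 week, where 23% of all genes were called higher. The genes called lower at 1 week were then not called: the adjusted limma p was 0.259 for Col4a6, 0.687 for Col9a2 and 0.238 for Col18a1. The scaling also moved the balance of calls. At 1 week 63.3% of all calls were to the higher side, against 45.5% with arrays centred on the median, 36.1% with the percentile over all probes and 33.3% with normexp background correction, where the median of all genes was -0.05, -0.16 and -0.20. The collagen calls at 1 week were 14 higher and 3 lower with median centring and with the percentile over all probes, and 11 higher and 5 lower with normexp. At 2 and 6 weeks 14 collagens were called higher with median centring, the percentile over all probes and quantile normalization, and 11 with normexp. The lower calls moved more, from 2 at each of these weeks to 3 and 4 with median centring. They were 5 and 6 with the percentile over all probes, 3 and 3 with quantile normalization, and 1 and 1 with normexp. The calls of all genes moved too. At 2 and 6 weeks 60.5% and 60.2% of them were to the higher side. With median centring the shares were 48.9% and 48.2%, and with the percentile over all probes 39.3% and 38.1%. With quantile normalization they were 57.5% and 53.6%, and with normexp 48.4% and 53.3%. With the percentile over all probes 6218 and 6843 of the 13900 genes were called, against 5258 and 5658.

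The fibrillar class holds the 2 genes with the largest differences at 2 and 6 weeks, Col1a1 and Col3a1. Of the 8 measured, 6 rose at 1 week, 4 rose and 1 fell at 2 weeks, and 5 rose and 1 fell at 6 weeks. The class median was 1.86, 1.07 and 1.62, or 1.59, 1.05 and 1.14 with genes below background at their bound. It depended on which dim genes were counted: at 2 and 6 weeks it was 0.62 and 0.83 with normexp, 0.47 and -0.15 without a filter, and 2.81 and 3.42 over genes above background on all arrays.

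Col1a1 encodes the alpha 1 chain of type I collagen, the main protein of fibrous scars. Its signal in control liver was 257 and 447 at 1 week, 163 and 146 at 2 weeks, and 102 and 136 at 6 weeks. On CDAHFD it was 2237 and 1824, then 1636 and 2048, then 1846 and 2058. Every CDAHFD array was above every control array, the 1-week controls were the highest of the controls, and the CDAHFD arrays showed no order by week. The difference was 2.44 ± 0.25 at 1 week (5.44-fold, adjusted p = 5.26e-05), 3.52 ± 0.25 at 2 weeks (11.4-fold, adjusted p = 5.55e-06) and 4.01 ± 0.25 at 6 weeks (16.1-fold, adjusted p = 1.9e-06).

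Col1a2 encodes the partner chain of type I collagen. In control liver its signal was 973 and 1508 at 1 week, 1093 and 1008 at 2 weeks, and 715 and 828 at 6 weeks. CDAHFD arrays read 6311 and 5081, then 6798 and 7906, then 7276 and 9120, all above the controls. The gene rose 4.27-fold, 6.74-fold and 10.3-fold (differences 2.09, 2.75 and 3.37, each ± 0.20), with adjusted p of 3.65e-05, 6.35e-06 and 1.59e-06. Col3a1, the chain of type III collagen that forms fine reticular fibres, read 637 and 1074, 633 and 613, and 425 and 492 in the 3 control groups. On CDAHFD it read 5731 and 3965, 4545 and 5172, and 4517 and 5969. Again no CDAHFD array came near a control. The difference was 2.40, 2.91 and 3.47, each ± 0.25, or 5.27-fold, 7.51-fold and 11.1-fold.

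Type V collagen, which starts type I fibrils and limits their width, gave a split among its chains. Col5a1 read 128 and 170, 118 and 150, and 127 and 108 in control liver, and 567 and 432, 468 and 558, and 462 and 526 on CDAHFD. It rose at all weeks without overlap, by 1.62, 1.89 and 2.04 (each ± 0.20), which is 3.07-fold to 4.12-fold. Col5a2 was dim: controls read 5.63 to 16.5 and CDAHFD arrays 15.2 to 27.7, and neither control array of 2 or 6 weeks was above background. It was called at 6 weeks alone, by 1.21 ± 0.31 and at least 1.17-fold (adjusted p = 0.00894). That call ended without the second 6-week control array (adjusted p = 0.0706), and the difference at 1 and 2 weeks was -0.31 and -0.30 with normexp. Col5a3, the least widespread chain of type V, changed direction between weeks and is described with the weeks.

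**Figure D2:**
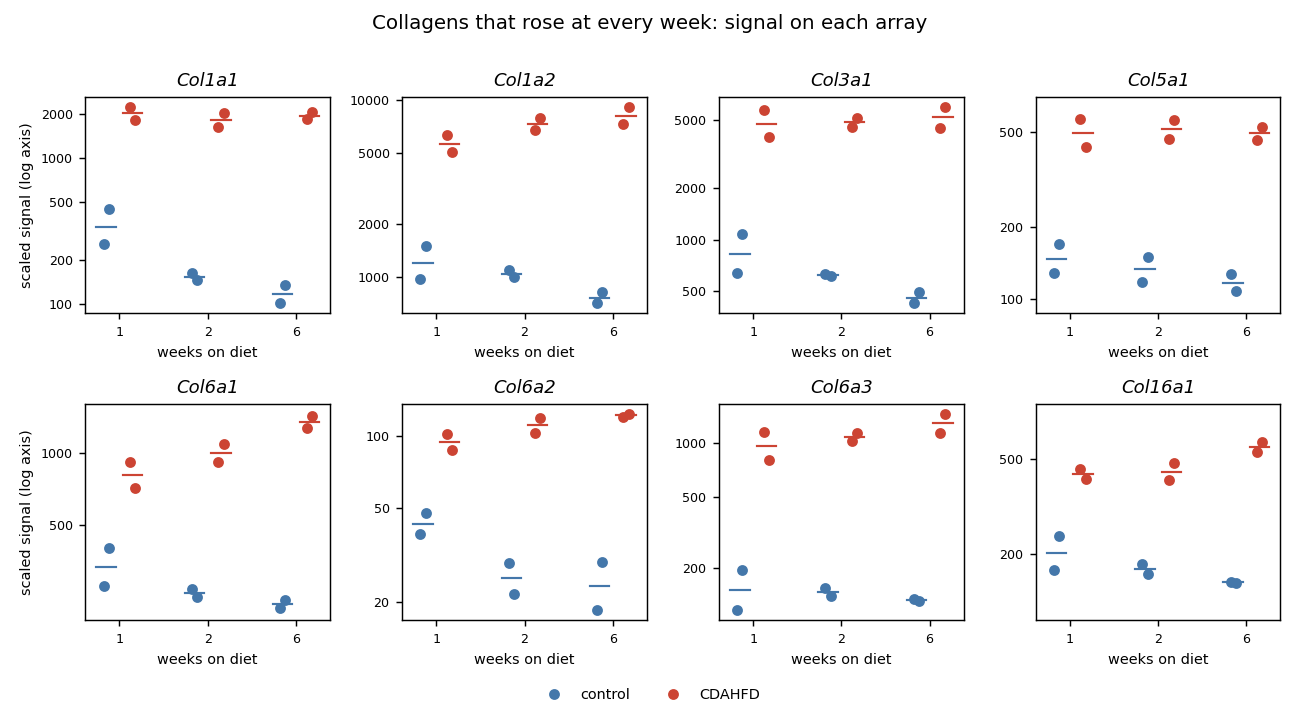
Scaled signal of 8 collagens that were called higher at all 3 weeks, by weeks on diet. Each point is 1 array, lines are the geometric means of 2 arrays, blue is control, red is CDAHFD, and the vertical axes are logarithmic and differ between genes. In each panel all 6 CDAHFD arrays lie above all 6 control arrays, as for Col1a1 with 1636 to 2237 against 102 to 447.

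Col27a1 and Col11a2, both best known from cartilage, did not follow the main fibrillar genes. Col27a1 read 16.5 and 4.62 in the 1-week controls, both below background, and 43.3 and 42.1 on CDAHFD at that week. At 6 weeks the controls read 67.9 and 47.9 and the CDAHFD arrays 27.0 and 24.6. It was called at 1 week alone, by 2.16 ± 0.51 and at least 2.69-fold (adjusted p = 0.00547), a call that ended against the later controls (adjusted p = 0.894) and with normexp. Col11a2 read 11.5 to 24.5 on all arrays, its differences were -0.08, -0.77 and -0.83, and it was called at no single week (adjusted p = 0.918, 0.105 and 0.0751). In the average of the 3 weeks it was called lower, at -0.57 (adjusted p = 0.0426), as were 25.7% of all genes. Neither of its 6-week CDAHFD arrays was above background.

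The starts of Col1a2 and Col3a1 are shown because these genes rose together in every CDAHFD group. The sequences are RefSeq promoter bases of build GRCm38.p6, 5′ to 3′ on the gene's own strand and ending at the base before the start site. Capitals mark matches on either strand to the CCAAT box, to the Sp1 core GGGCGG and to the Smad-binding element CAGACA. The Col1a2 window is chr6:4505368-4505617 on the plus strand and the Col3a1 window is chr1:45311288-45311537 on the plus strand.
Col1a2: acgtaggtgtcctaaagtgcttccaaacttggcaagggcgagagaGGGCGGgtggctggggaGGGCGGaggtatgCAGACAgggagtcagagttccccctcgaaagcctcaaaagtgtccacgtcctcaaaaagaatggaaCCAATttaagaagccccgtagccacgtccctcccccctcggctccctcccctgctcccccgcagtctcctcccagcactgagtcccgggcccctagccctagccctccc
Col3a1: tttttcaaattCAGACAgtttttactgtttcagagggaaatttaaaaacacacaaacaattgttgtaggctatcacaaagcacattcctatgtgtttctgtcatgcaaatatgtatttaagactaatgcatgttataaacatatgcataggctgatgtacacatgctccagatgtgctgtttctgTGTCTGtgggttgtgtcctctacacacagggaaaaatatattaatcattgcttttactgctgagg
The Col1a2 window holds 1 CCAAT, 2 GGGCGG and 1 CAGACA, and the Col3a1 window holds 2 CAGACA matches and none of the other letters. Their GC content is 62% and 35.2%. Over 38 promoters of 35 collagen genes in the table, 34.2% held CCAAT, 57.9% GGGCGG, 23.7% CAGACA and 2.63% the AP-1 motif TGACTCA. Over all 32851 promoters of 250 bases the shares were 33.8%, 32.7%, 17.1% and 4.46%. No motif contains another, and a match describes the sequence only.

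The chains of collagen IV in basement membranes moved in both directions. Of the 5 measured, Col4a1, Col4a2 and Col4a5 rose at all 3 weeks, Col4a6 fell at all 3, and Col4a4 was not called. The class median was 0.41, 0.87 and 1.36, and -0.20, 0.16 and 0.37 with normexp.

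Col4a1 and Col4a2 encode the chains of the collagen IV network found in nearly every basement membrane. Col4a1 read 333 and 351, 257 and 316, and 271 and 276 in control liver, and 1046 and 855, 945 and 1116, and 1176 and 1002 on CDAHFD. All CDAHFD arrays lay above all controls, and the gene rose 2.53-fold, 3.48-fold and 3.87-fold (1.34, 1.80 and 1.95, each ± 0.15). Col4a2 read 429 and 389 in the 1-week controls, 216 and 252 at 2 weeks, and 247 and 264 at 6 weeks. On CDAHFD it read 645 and 551, 531 and 668, and 633 and 716. The CDAHFD levels overlapped across weeks, while the 1-week controls were above the later ones. The difference was 0.41 ± 0.15 at 1 week (1.33-fold, adjusted p = 0.016) and then 1.30 and 1.36 (2.46-fold and 2.57-fold). The 1-week call ended without the second control array or the first CDAHFD array of that week (adjusted p = 0.0819 and 0.13). It also ended with arrays centred on the median, with the percentile over all probes and with quantile normalization.

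Col4a5 and Col4a6 encode chains of a second collagen IV network with a narrower range of tissues. Col4a5 read 23.9 and 33.1, 28.2 and 27.4, and 21.2 and 17.4 in control liver, against 51.7 and 45.0, 44.7 and 62.4, and 47.1 and 60.7 on CDAHFD. It rose without overlap by 0.65, 0.87 and 1.44 (each ± 0.26), which is 1.57-fold, 1.83-fold and 2.72-fold. Col4a6 read 55.9 and 46.4, 33.2 and 44.2, and 39.7 and 35.7 in control liver, against 31.4 and 30.4, 24.8 and 24.6, and 18.3 and 17.3 on CDAHFD. All of its CDAHFD arrays lay below all control arrays, and it fell by 0.85, 0.68 and 1.12 (each ± 0.22; 1.80-fold, 1.61-fold and 2.17-fold lower). These are opposite calls for neighbouring genes in the same livers, by the probe read for each. A second Col4a6 probe was above background on 1 array, from CDAHFD at 6 weeks, and was not tested. Its dim signal ran the other way at 2 weeks, with 4.33 and 3.38 in control liver and 8.43 and 6.46 on CDAHFD. At 6 weeks it also did, with 3.43 and 3.18 against 8.43 and 13.9. At 1 week the control and CDAHFD arrays of that probe overlapped. Signals below background set only a bound.

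Both genes are dim, and several of their calls rest on single arrays. The Col4a5 call at 1 week ended without the first 1-week control array or either 1-week CDAHFD array (adjusted p = 0.0696 to 0.189). At 2 weeks it ended without either 2-week control array or the second 2-week CDAHFD array (0.0572 to 0.143). With normexp its 1-week difference was -0.20. The Col4a6 call at 1 week ended without the first 1-week control array or either 1-week CDAHFD array (0.0903 to 0.125). At 2 weeks it ended on leaving out any of 7 arrays (0.0607 to 0.227): either 1-week CDAHFD array, the second 2-week control, either 2-week CDAHFD array or either 6-week control. With the replicate number as a block its adjusted limma p at 2 weeks was 0.0568. At 6 weeks both calls held on leaving out any 1 array.

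**Figure D3:**
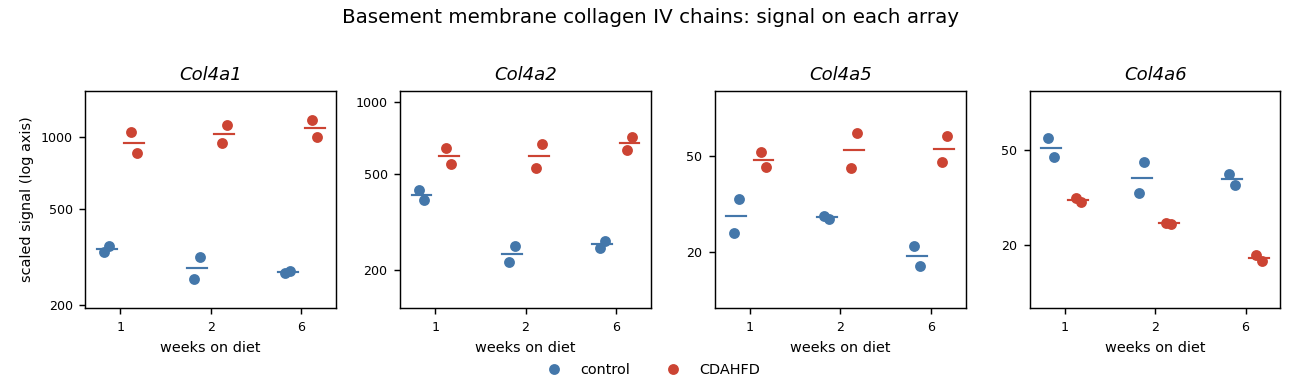
Scaled signal of 4 collagen IV chains by weeks on diet, 1 point per array, with lines at the geometric mean of 2 arrays, blue for control and red for CDAHFD, on logarithmic axes that differ between genes. Col4a1, Col4a2 and Col4a5 lie higher on CDAHFD at each week, while Col4a6 lies lower, with 17.3 and 18.3 against 35.7 and 39.7 at 6 weeks.

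Chains of collagen IV lie head to head in the genome. In the RefSeq promoter table the start sites of Col4a1 and Col4a2 are 21 bases apart on opposite strands, and those of Col4a5 and Col4a6 are 1343 bases apart. The upstream bases of Col4a5 and Col4a6 are shown because this pair shares 1 intergenic stretch and the probes read for it moved apart. They are trimmed to bases outside any annotated gene. The Col4a5 window is chrX:141475169-141475369 on the plus strand and the Col4a6 window is chrX:141474096-141474326 on the minus strand (GRCm38.p6, RefSeq). Capitals mark the same motifs as above.
Col4a5: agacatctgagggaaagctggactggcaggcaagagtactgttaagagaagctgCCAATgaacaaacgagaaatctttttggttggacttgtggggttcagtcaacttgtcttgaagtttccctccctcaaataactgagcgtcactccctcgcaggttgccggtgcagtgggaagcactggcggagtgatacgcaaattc
Col4a6: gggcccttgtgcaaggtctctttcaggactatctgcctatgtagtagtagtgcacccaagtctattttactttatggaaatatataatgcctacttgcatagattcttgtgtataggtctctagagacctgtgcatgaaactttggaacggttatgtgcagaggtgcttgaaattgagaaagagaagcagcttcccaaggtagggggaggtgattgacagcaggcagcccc
The Col4a5 window, of 201 bases, holds 1 CCAAT. The Col4a6 window, of 231 bases, holds none of the 4 sets of letters, which says only that they are not in this window.

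Beaded-filament chains of collagen VI, which anchor cells to the matrix around them, rose together. Each of the 3 measured chains was higher at each week, with a class median of 1.15, 2.09 and 2.49. Col6a3 read 116 and 195, 154 and 138, and 133 and 130 in control liver, and 1161 and 804, 1035 and 1147, and 1148 and 1463 on CDAHFD. It rose 5.88-fold, 7.21-fold and 9.60-fold (2.56, 2.85 and 3.26, each ± 0.24). Col6a1 read 279 and 402, 270 and 251, and 226 and 245 in control liver, against 921 and 715, 922 and 1094, and 1280 and 1428 on CDAHFD. Its CDAHFD arrays stood above all controls and were highest at 6 weeks, and the difference was 1.15, 1.90 and 2.49 (each ± 0.18). Col6a2 read 18.5 to 47.7 in control liver and 87.4 to 124 on CDAHFD, with no overlap, and rose by 1.01, 2.09 and 2.35 (each ± 0.25). Its 1-week call ended without the first 1-week CDAHFD array (adjusted p = 0.0506). A second Col6a2 probe, above background on 7 arrays, gave 0.10, -0.02 and 0.91 and was not called (adjusted p = 0.836, 0.968 and 0.179 in a fit of single probes).

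FACIT collagens, which link fibrils to the matrix around them, split into 3 that rose at all weeks and 2 that did not. Col14a1, a coat protein of type I fibrils, read 1296 and 1331, 1187 and 1467, and 1555 and 1264 in control liver. On CDAHFD it read 2558 and 1999, 2431 and 2568, and 3150 and 3391. The arrays did not overlap, and it rose 1.57-fold, 1.83-fold and 2.28-fold (0.65, 0.87 and 1.19, each ± 0.15). A second Col14a1 probe gave 0.18, 0.57 and 0.76 and was called at 6 weeks alone (adjusted p = 0.0289 in a fit of single probes). Col16a1, a minor FACIT chain found near fibrils and fibrillin fibres, read 151 to 236 in control liver and 405 to 588 on CDAHFD. It rose by 0.98, 1.30 and 1.85 (each ± 0.17), up to 3.60-fold at 6 weeks.

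Col12a1, the chain of another fibril-coating collagen, was below background on all 6 control arrays, at 2.78 to 5.14, and above it on all 6 CDAHFD arrays, at 16.8 to 21.9. Since a signal below background sets only a bound, the rise was at least 1.23-fold, 1.48-fold and 1.31-fold (adjusted p = 0.000691, 0.000534 and 0.000413). With normexp the differences of Col12a1 were -0.33, -0.024 and 0.13, none of them called. Col9a2, a cartilage collagen chain, fell at 1 week by 1.08 ± 0.25, from 38.3 and 35.9 in control liver to 21.1 and 17.4 on CDAHFD (adjusted p = 0.0112). The later controls read 18.4 to 22.1, close to the 1-week CDAHFD arrays, and the call ended without the second 1-week CDAHFD array (adjusted p = 0.072). Col20a1, named after its values were seen, was the fifth FACIT chain measured and was called at no week (8.64 to 36.3 on all arrays). A second Col20a1 probe, above background on 3 arrays and at 2.65 to 18.9, was called at 1 week in the fit of single probes, by 1.76 (adjusted p = 0.0273), with both controls of that week below background. At 2 and 6 weeks that probe gave -0.11 and -1.53 (adjusted p = 0.895 and 0.0567). The class median was 0.65, 0.87 and 1.19, and 0.33, 0.56 and 0.39 with Col12a1 at its bound. With normexp the median was -0.33, -0.024 and 0.13.

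Among the other collagens Col18a1 had bright probes on every array. Col18a1 encodes a basement membrane collagen of sinusoids and vessels whose end fragment is endostatin, and hepatocytes are known to make it. Its signal was 22927 and 18721, 16868 and 16237, and 16241 and 15147 in control liver, and 12949 and 14597, 13899 and 12600, and 14715 and 10478 on CDAHFD. All CDAHFD arrays lay below all control arrays. It fell at 1 week by 0.72 ± 0.16 (1.65-fold lower, adjusted p = 0.0151), while -0.37 at both 2 and 6 weeks was not called (adjusted p = 0.145 and 0.124). The 1-week call ended without the first control array or the first CDAHFD array of week 1 (adjusted p = 0.107 to 0.11), and with quantile normalization, under which the 2-week difference was 0.027. A second Col18a1 probe was called lower at each week in a fit of single probes, by 1.13, 0.71 and 0.77 (adjusted p = 0.000465, 0.00458 and 0.00274).

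Col7a1, the anchoring-fibril collagen best known from skin, read 6.67 and 2.58 in the 1-week controls, both below background. The later controls read 12.0 to 25.1, and the CDAHFD arrays read 30.3 to 41.2 at all weeks. It rose at 1 week by at least 2.28-fold (adjusted p = 0.000477). It was not called at 2 and 6 weeks (0.69 and 0.99, adjusted p = 0.227 and 0.0962), nor at 1 week against the later controls (0.82, adjusted p = 0.108). Col13a1, a collagen that spans the cell membrane, was dim on all arrays, at 8.51 to 26.5. It rose at 2 weeks alone, by at least 1.60-fold (adjusted p = 0.0161). This call ended without the second 2-week control array or the second 2-week CDAHFD array (adjusted p = 0.0859 and 0.125), and the difference was -0.076 with normexp.

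The diet difference of several collagens changed from 1 to 6 weeks. Of the 24, 4 had a larger difference at 6 weeks and 2 a smaller one, 6 in all, where 5.38% of all genes tested were called, 2.51% with a larger and 2.87% with a smaller difference. Col1a1 grew by 1.50 ± 0.35 (adjusted p = 0.0415), Col1a2 by 1.21 ± 0.29 (0.0449), Col6a1 by 1.28 ± 0.26 (0.0279) and Col4a2 by 0.89 ± 0.21 (0.047). The difference of Col5a3 went down by 2.59 ± 0.44 (0.0162). That of Col27a1 also went down (adjusted p = 0.0282), and since its 1-week controls were below background the change is only a bound, at least 6.37-fold. From 1 to 2 weeks Col5a3 alone was called, by -2.60 ± 0.44 (adjusted p = 0.0292), where 1.27% of all genes were called. From 2 to 6 weeks limma called 0 collagens and 0% of all genes. At an unadjusted p under 0.05 it found 2 collagens, and 5.97% of all genes, and none of the alternative settings tried in the closing section made a call there.

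The count of 6 rested on single arrays. It was 0 without the second 1-week CDAHFD array and 1 without the first 1-week CDAHFD array or either 6-week control. It was 3 without the second 1-week control, either 2-week CDAHFD array or the second 6-week CDAHFD array, and 8 without the first 1-week control. With the 2- and 6-week controls set against the 1-week CDAHFD arrays, no collagen was called for the change by limma, and the change of Col1a1 was then 0.15 (adjusted p = 0.854). Weeks 1 and 2 were on slide 1 and week 6 on slide 2, so week 6, its slide and the age of the mice cannot be told apart. Diet was compared within each slide.

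Values of the controls moved with these changes. Across the 3 control groups 5 collagens were called by an F test, where 11.5% of all genes were called: Col1a1 (adjusted p = 0.0107), Col4a2 (0.0156), Col27a1 (0.0212), Col5a3 (0.00503) and Col7a1 (0.0156). From 1 to 6 weeks 3 collagens rose in control liver (8.58% of all genes) and 5 fell (7.34%). Col1a1 fell by 1.55, Col6a2 by 0.90, Col3a1 by 0.88 and Col4a2 by 0.70, while Col5a3 rose by 2.14. The other 3 were below background on both control arrays at 1 end of the step: Col27a1 rose at least 3.87-fold, Col7a1 rose at least 1.18-fold and Col5a2 fell at least 1.15-fold. Across the 3 CDAHFD groups the F test called 0 collagens, where it called 3.1% of all genes. At an unadjusted p under 0.05 there were 5 collagens and 17.89% of all genes, eBayes without trend called 1 and normexp 2. As a single pair, 6 against 1 week on CDAHFD called Col6a1 alone, which rose by 0.74 (adjusted p = 0.0414), where 3.87% of all genes rose.

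Col5a3 was the 1 collagen called in opposite directions at 1 and 6 weeks, as 0.41% of all genes were. It is the third chain of type V collagen, known from fat, muscle and other tissues. In control liver it read 318 and 267 at 1 week, 1377 and 1124 at 2 weeks, and 1875 and 903 at 6 weeks. On CDAHFD it read 894 and 982, 564 and 750, and 590 and 792. The 1-week controls were the lowest arrays, the later controls were the highest except for 1 at 6 weeks, which lay below the second 1-week CDAHFD array, and the CDAHFD arrays lay between. The gene was 2.94-fold higher at 1 week (1.56 ± 0.31, adjusted p = 0.00239). It was 1.98-fold lower at 2 weeks (-0.99 ± 0.31, adjusted p = 0.0393) and 1.95-fold lower at 6 weeks (-0.96 ± 0.31, adjusted p = 0.038). Col5a3 was also the 1 collagen called by the F test for a change of the diet difference over the 3 weeks (adjusted p = 0.0265), where 2.4% of all genes were called.

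The calls of Col5a3 at 2 and 6 weeks were close to the threshold. At 2 weeks the call ended without any 1 of the 4 CDAHFD arrays of weeks 1 and 2 or of the 2 controls of week 2 (adjusted p = 0.0579 to 0.198). At 6 weeks it ended without either 1-week CDAHFD array, either 2-week control, the first 6-week control or either 6-week CDAHFD array (0.0521 to 0.243). With the replicate number as a block the adjusted limma p was 0.0536 and 0.0517. Against the later controls the 1-week difference was -0.50 (adjusted p = 0.236). The F test for Col5a3 or any other collagen gave 0 calls without any 1 of the 4 CDAHFD arrays of weeks 1 and 2, 2 without the second 1-week control and 6 without the first. It gave 3 with arrays centred on the median, 2 with the percentile over all probes, 4 with quantile normalization and 3 with normexp.

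**Figure D4:**
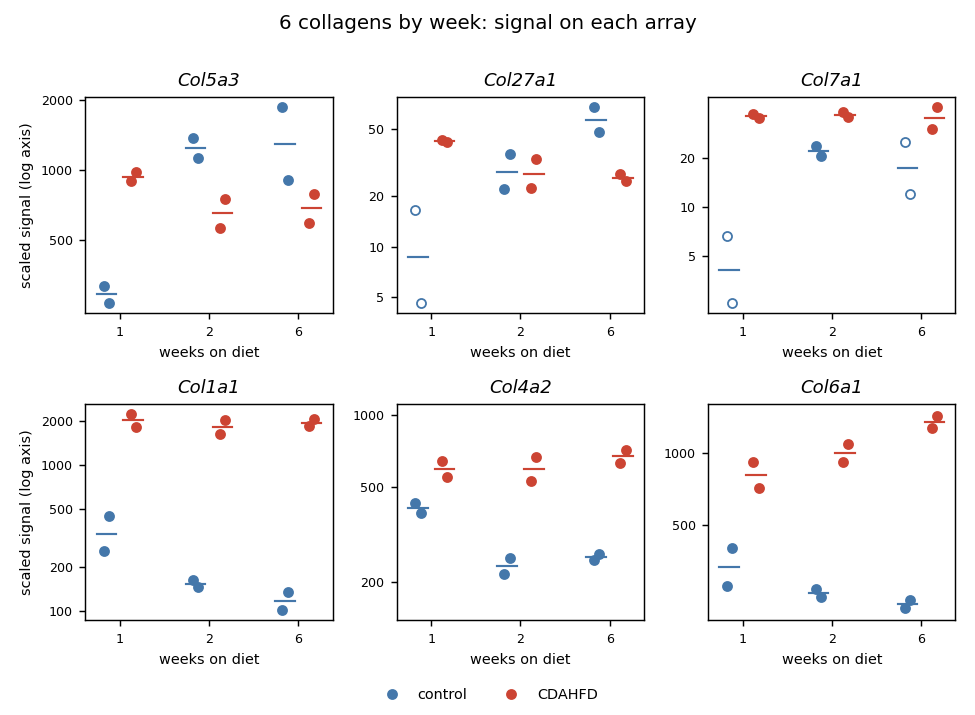
Scaled signal of 6 collagens by weeks on diet, 1 point per array, with lines at the geometric mean of 2 arrays, blue for control and red for CDAHFD, on logarithmic axes that differ between genes. Open points are groups in which the probe was not above background on both arrays. For Col1a1 the CDAHFD arrays stay between 1636 and 2237 while the controls go from 257 and 447 to 102 and 136, and for Col5a3 the controls go from 267 and 318 to 903 and 1875.

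Genes that modify, assemble and sense collagen were read from 3 lists, chosen with earlier results of these data known. In the average of the 3 weeks, 35.6% of all genes were called higher and 25.7% lower, and 15 collagens were called higher and 4 lower. Of 19 measured genes for chain modification and folding, 9 rose and 3 fell, with a median of 0.39. Serpinh1, the collagen chaperone HSP47, rose by 1.71 ± 0.11, from 234 to 418 in control liver to 944 to 1507 on CDAHFD. Fkbp10, a prolyl isomerase of the endoplasmic reticulum that acts on procollagen, rose by 1.69, and Colgalt1, which adds galactose to hydroxylysine, by 0.70. P4ha1, a catalytic chain of prolyl 4-hydroxylase, rose by 0.39 (adjusted p = 0.00541). The 3 that fell, named after their values were seen, were Colgalt2, Ppib and Mia2. Ppib fell by 0.35 and Mia2 by 0.24. Colgalt2, another galactosyltransferase of this kind, fell by 1.85 at 1 week (adjusted p = 0.00721), and with its CDAHFD arrays below background it was at least 2.45-fold and 2.87-fold lower at 2 and 6 weeks. It passed the filter through control groups alone, where it was high.

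Of 19 measured genes for propeptide removal and fibril assembly, 13 rose and 3 fell, with a median of 0.83. Loxl2, an enzyme that cross-links collagen, rose by 1.95 ± 0.07, from 121 to 160 in control liver to 461 to 710 on CDAHFD. Lum, the fibril-binding proteoglycan lumican, rose by 2.54, and Adamts14, a procollagen N-propeptidase, by 1.94. Bmp1, the main procollagen C-propeptidase, fell by 0.49 (adjusted p = 0.00293), and Pcolce2 and Fn1, named after their values were seen, fell by 0.74 and 0.55. All 8 measured collagen receptors rose in the average, with a median of 0.93. At 1, 2 and 6 weeks 7, 3 and 6 of them were called higher, where 25.9%, 22.9% and 24.5% of all genes were. With the later controls in place of those of week 1, 4 receptors were called higher at 1 week, where 23% of all genes were. Ddr1, a receptor tyrosine kinase for collagen, rose by 2.79 ± 0.19, and it was at 16.1 to 33.0 in control liver and 119 to 335 on CDAHFD. Lair1, an inhibitory receptor of leukocytes, rose by 1.93, and Ddr2, the receptor kinase of mesenchymal cells, by 1.17.

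Markers of stellate cells, portal fibroblasts and macrophages rose beside the collagens, and those of endothelium and cholangiocytes were mostly not called. Those of hepatocytes fell in the average, with fewer called at each later week. The counts below stand beside the 35.6% of all genes called higher and 25.7% called lower in the average. At 1, 2 and 6 weeks 25.9%, 22.9% and 24.5% of all genes were called higher and 15%, 14.9% and 16.2% lower. Of 14 measured markers of stellate cells and myofibroblasts, 13 rose in the average (10, 10 and 11 at 1, 2 and 6 weeks), and their summed signal was 3351 to 4145 on the control arrays and 8826 to 15300 on the CDAHFD arrays. All 6 measured markers of portal fibroblasts rose in the average (4, 4 and 6 by week), from a sum of 583 to 789 to one of 1582 to 2102. Of 5 macrophage markers 4 rose, with sums of 6420 to 12730 and 17060 to 27250. Of 7 endothelial markers 2 rose and 1 fell (6378 to 7430 against 7784 to 9523), and of 5 measured cholangiocyte markers 2 rose (158 to 241 against 167 to 357). All 5 hepatocyte markers fell in the average, with 4, 3 and 1 called at 1, 2 and 6 weeks. Their sums were 164900 to 304000 against 130800 to 163000. Alb, the albumin gene, was called lower at 1 week alone, at -1.30, and was at -0.22 and -0.03 at 2 and 6 weeks. The labelled tissue is liver, and albumin, a defining product of hepatocytes, was at or above 47600 on every array. Among the stellate markers Timp1, an inhibitor of matrix metalloproteinases, was below background on all 6 control arrays, at 3.16 to 8.29, and read 375 to 606 on CDAHFD. It passed through CDAHFD groups alone, as did 1 portal fibroblast marker, Eln, and 1 cholangiocyte marker, Cftr. So did 2 genes in each of the 3 lists on modification, assembly and sensing of collagen, of which 1, 1 and 2 were among those called higher. The part of these cells in the collagen differences was not tested.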

How the data were processed

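The deposited values are spot intensities from Agilent Feature Extraction, with background subtraction and spatial detrending done array by array, per the file headers, and no scaling between arrays. Its version is 11.5.1.1 in the headers but 10.7 in the submitters' processing notes. The other columns used, flags for outliers, saturation and signal well above background, were also deposited. Of 62976 spots an array, 59305 were gene spots and 0 of these were saturated. Flagged outliers were left out (54 values missing), and spots of a probe were averaged. Accessions were matched to RefSeq names of GRCm38.p6, which named 28664 probes and left 27017 unnamed.

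Intensities were taken as log2 of the deposited signal, minus each array's 75th percentile over the 20137 probes above background on all arrays, since all 12 arrays detected under 50% of probes. Genes with a probe above background throughout 1 or more groups were kept and read by the brightest such probe, 13900 genes in all. limma 3.58.1 in R 4.3.3 (lmFit, eBayes with trend and robust, 6 group means, 6 residual degrees of freedom, 2-sided) was tested on simulated data. A gene below background on a group's arrays has only a bound there. The fold "at least" sets the brighter mean against the higher of the lowest signal above background and the gene's own. A p printed beside such a fold belongs to the fitted difference and not to the bound. The number of arrays limits the precision.

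The 44 members and all lists were chosen with earlier results of these data known. Named were 13 collagens of liver matrix whatever they showed, up to 3 further members of each class by adjusted p, every member called lower or for a change between weeks, and, of the pathway lists, the first member and the 3 with the smallest adjusted p in the average. Alternatives were other scalings, normexp with an offset of 50, other filters, the mean of probes, masking of a dim area, eBayes without trend, the replicate block, single weeks, later controls and leaving out each array. Later controls for the change from 1 to 6 weeks, the average of weeks 2 and 6, and the fit of single probes were chosen after the data were seen.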

Additional observations from a re-analysis of the deposited data

Results flagged for a closer look

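In 6 collagens the diet difference at 6 weeks differed from that at 1 week by a limma test of the change itself. Col1a1 changed by 1.50, Col1a2 by 1.21, Col6a1 by 1.28 and Col4a2 by 0.89 on the log2 scale, and all 4 had the larger difference at 6 weeks. Col5a3 changed by -2.59. The fitted change of Col27a1 was -3.40, and since its 1-week controls were below background the bound was -2.67. For Col5a3 the change from 1 to 2 weeks was -2.60 (adjusted p = 0.0292), the 1 collagen called for that step. The F test over the 3 weeks also called Col5a3 (adjusted p = 0.0265).

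The control arrays moved beside 4 of these 6 values. From 1 to 6 weeks the controls changed by -1.55 for Col1a1, -0.70 for Col4a2 and 2.14 for Col5a3, and Col27a1 rose at least 3.87-fold, each past the threshold. For Col1a2 and Col6a1 the controls changed by -0.68 and -0.54, which was not called (adjusted p = 0.0556 and 0.0857). The CDAHFD arrays changed by -0.05 for Col1a1, -0.72 for Col27a1 and -0.45 for Col5a3, none of which was called (adjusted p = 0.938, 0.442 and 0.429), and by 0.74 for Col6a1, which was called. The 1-week controls also had the widest spread between replicates, and the part of that in these changes was not tested.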

How the results depend on the processing

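Of 72 results for a gene at a week, 51 were past the threshold, 31 of them under every alternative run. The total of collagens called for diet stayed within 1.5 times its value at each week and in the average, but its split moved. In the average 15 higher and 4 lower became 11 and 8 with normexp and 16 and 12 of all 44 collagens without a filter. At 1 week 16 and 3 became 11 and 5, and 16 and 9. The calls of all genes moved too. In the average 8522 of 13900 genes were called, 58% of them higher. With normexp 7856 were called, 35.3% higher, and without a filter 12241 of 21613, 41.5% higher. At 1 week the share of calls to the higher side went from 63.3% to 33.3% with normexp and 43.8% without a filter. The call for a change from 1 to 6 weeks, 6 collagens, became 3 without a filter, 3 with eBayes without trend and 0 with later controls, and 0 to 8 on leaving out each array. The F test over weeks, 1 collagen, gave 3 with median centring, 2 with the percentile over all probes, 4 with quantile normalization, 3 with normexp, and 0 to 6 on leaving out each array. Weeks within CDAHFD, 0 collagens, gave 2 with normexp and 1 with eBayes without trend, and weeks within control, 5 collagens, gave 3 with normexp. Class medians of the average were, for fibrillar genes, 1.27 and 0.77 with normexp, 0.51 without a filter, which adds genes below background, and 2.80 over genes above background on all arrays. They were 0.98 for basement membrane chains, 0.11 with normexp and 0.64 without a filter. For FACIT 0.90 turned to -0.077 with normexp and -0.075 without a filter. For beaded filaments 1.84 became 1.10 without a filter and 2.23 over weeks 2 and 6, and for the others -0.05 became -0.43 over genes above background on all arrays. By week, medians turned sign with normexp for basement membrane (-0.20 at 1 week), FACIT (-0.33 and -0.024 at 1 and 2 weeks) and others (-0.076 at 2 weeks). They turned without a filter for fibrillar (-0.15 at 6 weeks), FACIT (-0.36 at 2 weeks) and others (-0.27 at 2 weeks). For others they also turned over genes above background on all arrays (-0.32 at 2 weeks), with later controls (0.15 at 1 week) and on leaving out each array (-0.66 to 0.073 at 6 weeks). Called differences that turned were, with normexp, Col12a1 (-0.33 and -0.024 at 1 and 2 weeks), Col13a1 (-0.076 at 2 weeks) and Col4a5 (-0.20 at 1 week), and, with later controls, Col5a3 (-0.50 at 1 week). Differences not called also turned. With normexp these were Col20a1 (-0.52) and Col5a2 (-0.31) at 1 week, Col5a2 (-0.30) at 2 weeks and Col4a4 (-0.11) at 6 weeks. Without a filter they were Col11a2 (0.18) and Col4a4 (0.10) at 1 week, Col27a1 (0.11) at 2 weeks and Col9a2 (0.031) at 6 weeks. With later controls at 1 week they were Col13a1 (0.15), Col20a1 (-0.50) and Col4a4 (0.12), and with quantile normalization Col18a1 (0.027 at 2 weeks). On leaving out each array the range crossed 0 for Col11a2 at 1 week (-0.55 to 0.42), Col20a1 at 1 week (-0.36 to 1.06), Col27a1 at 2 weeks (-0.42 to 0.23), Col5a2 at 2 weeks (-0.024 to 0.54) and Col4a4 at 6 weeks (-0.20 to 0.76). The cause of these moves was not tested. Signal over background limits Col12a1, Col5a2, Col7a1, Col13a1 and Col27a1, which were dim.

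The replicate numbers are shared by the groups but were not shown to pair the arrays: over 15 pairs of groups the correlation of same-numbered deviations was -0.14 to 0.22, and 4 pairs were over 0.1. With the replicate block 19, 14 and 15 collagens were called at 1, 2 and 6 weeks, against 19, 16 and 16 without it. The block ended the calls of Col4a6 and Col5a3 at 2 weeks and of Col5a3 at 6 weeks, all to the lower side, and of no other collagen at a week. A block call that is lost here says nothing on the size of the effect.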
